A study of Rattus norvegicus with 21 samples.

Results

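The genes followed here are 6 genes listed for glucose entry and glucose-stimulated secretion in the pancreatic beta cell. They are the glucose transporters Slc2a1 and Slc2a2, G6pc2, the potassium channel subunits Abcc8 and Kcnj11, and the peptide hormone Ucn3. They were taken by gene name from the deposited count table, in which 5 of the 6 have a row among 28914 gene rows. G6pc2 is not analysed here, because no row carries that name. Polyadenylated RNA came from Lewis rat islets of Langerhans, clusters of endocrine cells within the pancreas. The PX group (n = 11) had lost 90% of the pancreas by partial pancreatectomy, the sham group (n = 10) had a sham operation, and both were taken at 4 weeks, with no drug, allele or diet named for either. The labels call the animals 4 to 5 week rats without saying whether this is an age or a time, and give an average BG before sacrifice with no unit. Libraries are named here by group and by the animal number in the title.

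Glucose enters the rodent beta cell mainly through GLUT2, the low-affinity transporter encoded by Slc2a2, while GLUT1, encoded by Slc2a1, is a high-affinity transporter found in most tissues. Metabolism of glucose raises the ratio of ATP to ADP, which closes the ATP-sensitive potassium (KATP) channel, a complex of the sulfonylurea receptor SUR1 (Abcc8) and the pore Kir6.2 (Kcnj11); the membrane then depolarises, calcium enters and insulin is released. G6pc2 is named for the islet subunit of glucose-6-phosphatase, the enzyme that returns glucose-6-phosphate to glucose. Whether the rat gene yields a working subunit was not examined here. Ucn3 encodes urocortin 3, a peptide that mature beta cells release together with insulin and that acts on delta cells to raise the release of somatostatin.

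The labelled tissue was checked by its markers: the insulin gene Ins1 stood at 84494 ± 24385 CPM in sham (SD, n = 10) and 77558 ± 30007 CPM in PX (SD, n = 11), where CPM stands for counts scaled to a common library total, itself scaled by its TMM factor. Library totals ran from 4001908 to 13187959 counts, and 13136 genes passed a filter on low counts. BG was 101 to 174 in PX and 82 to 104 in sham. A score, the mean log2 CPM of the markers of a cell type, was used to follow other cells. The macrophage score was 3.08 to 6.07 in PX and 1.47 to 2.92 in sham, with all 9 tested markers called higher. The mesenchymal score was 5.10 to 7.15 in PX and 3.66 to 5.44 in sham, with 8 of 8 markers called higher. Acinar markers, from the enzyme-secreting exocrine cells, took 5.27% to 41.9% of counts in PX and 0.548% to 20.6% in sham, and 2 of 12 were called higher. The duct score was 5.10 to 6.21 in PX and 4.37 to 5.07 in sham, with 2 of 4 tested markers called higher, Cftr (log2 fold change 2.61) and Krt19 (1.01). None of the 5 lymphocyte markers passed the count filter. Of all genes tested, 14.9% were called higher in PX. Sham 46 stood apart from the other sham libraries with the highest macrophage and mesenchymal scores of its group, PX 65 had the highest acinar share of all, and PX 44 had the lowest macrophage and mesenchymal scores of its group.

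The 5 genes with a row lie on 4 chromosomes, in the coordinates of the deposited count table, whose build is not given in the sources used here. Kcnj11 (chr1:102103094-102106127, 1 exon block, 3034 bases of exon) and Abcc8 (chr1:102110708-102191287, 39 exon blocks, 4749 bases) are neighbours on the minus strand, with 4580 bases between them. Slc2a2 is at chr2:114413410-114445395 (12 exon blocks, 2668 bases) and Slc2a1 at chr5:138154673-138182897 (11 exon blocks, 2592 bases), both on the plus strand. Ucn3 is at chr17:69960160-69966099 on the plus strand, in 2 exon blocks with only 511 bases of exon. No other gene of the table shares exon bases with any of the 5.

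The start regions of the 3 measured genes found in the RefSeq promoter table (build GRCr8) are shown because they belong to the gene that rose, a gene that fell and the transporter that was not called. Abcc8 and Kcnj11 are not in that table. Each runs 5′ to 3′ from 250 bases before the annotated start to 30 bases after it: Slc2a1 at chr5:138002272-138002551, Slc2a2 at chr2:113540120-113540399 and Ucn3 at chr17:71219406-71219685, all on the plus strand. Capitals mark matches, on either strand, to the motifs searched: the TATA box core TATAAA, the GC box GGGCGG (in these windows found on the opposite strand as CCGCCC), the homeodomain core TAATTA, the cAMP-response core TGACG and the E-box CACGTG.
Slc2a1: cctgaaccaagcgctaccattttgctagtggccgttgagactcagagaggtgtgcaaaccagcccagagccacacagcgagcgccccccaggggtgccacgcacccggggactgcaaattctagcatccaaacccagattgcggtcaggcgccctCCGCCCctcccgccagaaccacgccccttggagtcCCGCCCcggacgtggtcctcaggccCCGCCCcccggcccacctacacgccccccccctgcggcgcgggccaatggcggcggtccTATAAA
Slc2a2: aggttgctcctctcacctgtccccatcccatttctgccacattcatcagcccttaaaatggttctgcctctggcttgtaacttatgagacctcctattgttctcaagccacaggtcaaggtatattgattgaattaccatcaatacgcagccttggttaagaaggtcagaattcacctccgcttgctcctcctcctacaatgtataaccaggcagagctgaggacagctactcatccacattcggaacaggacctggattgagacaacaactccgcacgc
Ucn3: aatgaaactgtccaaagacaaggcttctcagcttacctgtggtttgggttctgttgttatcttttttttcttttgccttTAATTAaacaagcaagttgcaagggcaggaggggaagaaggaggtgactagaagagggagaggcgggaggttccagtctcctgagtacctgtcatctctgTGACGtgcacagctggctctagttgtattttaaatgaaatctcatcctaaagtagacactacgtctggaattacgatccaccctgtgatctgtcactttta
The Slc2a1 window was rich in G and C (68.2%, against a median of 51.4% over 33469 windows of 280 bases) and held 22 CpG pairs, against a median of 6. It held 3 matches to the GC box, which 32.2% of windows hold at least once, and 1 match to the TATA box core, which 13.7% hold. The TATA match began at base 25 after the annotated start, not before it. The windows of Slc2a2 and Ucn3 had 48.2% and 43.9% G and C. That of Ucn3 held 1 match to the homeodomain core, present in 5.17% of windows, and 1 to the cAMP-response core, present in 20.2%. The Slc2a2 window held none of the motifs searched, and the E-box, present in 6.18% of windows, was in none of the 3. No match overlapped another. These matches describe letters only.

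Levels of different genes were compared per length, as CPM per kilobase of exon. Slc2a2 was the highest of the 5, at 816 ± 105 CPM per kilobase in sham (SD, n = 10) and 767 ± 298 in PX (SD, n = 11). Ucn3 followed at 196 ± 48.2 and 142 ± 40.2 CPM per kilobase, a value that rests on its short exon length in the deposited table. Abcc8 stood at 64.8 ± 9.89 CPM per kilobase in sham and 45.9 ± 9.22 in PX, and Kcnj11 at 49.5 ± 8.37 and 37.8 ± 8.09. Slc2a1 was the lowest, at 11.98 ± 2.94 CPM per kilobase in sham and 16.3 ± 5.29 in PX. The order by mean was the same in both groups, and every library had Slc2a2 above Slc2a1 per length. The ranges of neighbours in this order were apart except for the channel subunits, which overlapped in both groups, and for Kcnj11 and Slc2a1 in PX, which touched at their edges. Abcc8 lay above Kcnj11 per length in 8 of 10 sham and 9 of 11 PX libraries.

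**Figure D1:**
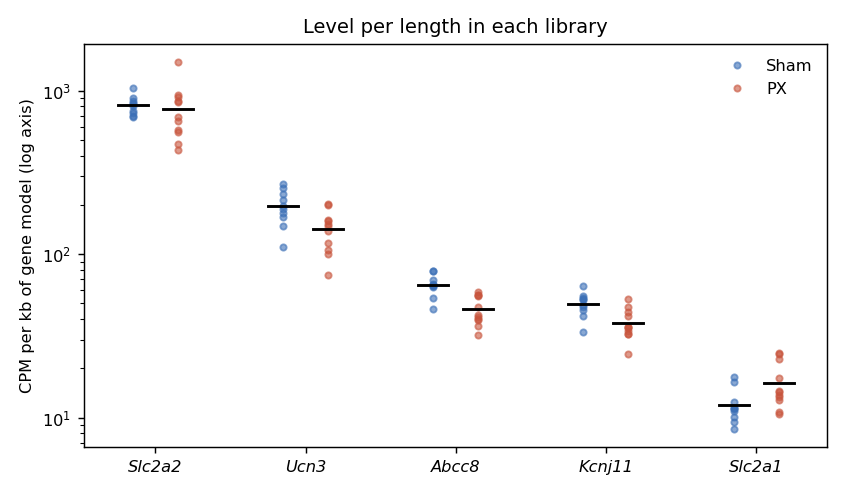
Level per length of the 5 measured genes in each library, in CPM per kilobase of exon on a log axis; points are libraries (10 sham, 11 PX) and black bars are group means. Slc2a2 lies highest and Slc2a1 lowest in both groups, and the points of Abcc8 and Kcnj11 overlap.

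Islets of PX rats were set against those of sham rats to ask how these genes differ once most of the pancreas has been removed. Both KATP channel subunits and Ucn3 fell in PX, to between 0.71 and 0.76 of their sham level, and Slc2a1 rose 1.36-fold. Slc2a2 was not called. Thus 4 of the 5 measured genes passed the test (edgeR quasi-likelihood, Benjamini-Hochberg adjusted over 13136 genes, threshold 0.05), where 31.1% of all genes tested did, 16.2% lower in PX and 14.9% higher. The median log2 fold change of the 5 genes was -0.39, beside -0.040 over all genes tested. The genes were chosen with earlier results of these data known, so no excess over all genes can be read from these values. In whole islets, fewer cells of a type and less RNA per cell cannot be told apart. The labels do not say beyond the animal number that the libraries came from separate animals, so p-values here reflect only how far these libraries differ, which may be technical.

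Slc2a2, the main glucose transporter of rodent beta cells, ran from 1845 to 2774 CPM in sham, with a median of 2188. In PX it ran from 1159 to 3970 CPM, with a median of 1846. The PX libraries thus enclosed the whole sham range: 5 of 11 lay below every sham library and PX 44, at 3970 CPM, lay above every one. The coefficient of variation was 12.9% in sham and 38.8% in PX, where counting error alone would give 0.793% and 0.900%. The log2 fold change was -0.089 ± 0.17 (SE), with a 95% interval from -0.42 to 0.25 on the log2 scale (edgeR, Benjamini-Hochberg adjusted p = 0.720). Changes of either direction within that interval remain compatible with these libraries. In PX the level went down as the macrophage score (r = -0.75) and the mesenchymal score (r = -0.77) went up over the 11 libraries. In sham the same correlations were -0.46 and -0.66 over 10 libraries. With the duct score r was -0.82 in PX and 0.31 in sham. These describe libraries that share their scaling, and their part in the spread was not tested.

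Slc2a1, the transporter of most other tissues, was a low gene, at 22.2 to 45.7 CPM in sham with a median of 29.5. In PX it was at 27.3 to 64.1 CPM with a median of 36.9. The 3 highest PX libraries, PX 58, 62 and 65, lay above every sham library and 3 sham libraries lay below every PX library, while the others overlapped. The place of PX 65 rests on its TMM factor of 0.359, the lowest of all libraries, where the highest was 1.27. Before that scaling, PX 65 held 280 Slc2a1 counts in a total of 13187959. Sham 50 held more, 361 counts, in a smaller total of 7455733. Sham libraries averaged 31.1 ± 7.62 CPM (SD, n = 10) and PX libraries 42.3 ± 13.7 CPM (SD, n = 11). Slc2a1 rose by 0.45 ± 0.17 on the log2 scale (SE; Benjamini-Hochberg adjusted p = 0.0437, edgeR). This call lay close to the threshold. It was lost with library totals as the only scaling (log2 fold change 0.17, edgeR adjusted p = 0.460), and when the acinar score entered the model (0.19, edgeR adjusted p = 0.489). It was also lost without any 1 of Sham 24, 47 or 48 or PX 57, 58, 62 or 65, with log2 fold changes from 0.37 to 0.46 (edgeR adjusted p from 0.0521 to 0.0907).

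The animal numbers fall into 5 runs, each of 1 group, so PX could not be compared with sham within a run. Mean Slc2a1 was 31.9 ± 4.21 CPM in PX 36 to 44 (SD, n = 5) and 50.9 ± 12.9 CPM in PX 57 to 70 (SD, n = 6). In sham it was 26.6 ± 2.46 CPM in Sham 21 to 24 (SD, n = 3), 34.6 ± 9.71 CPM in Sham 46 to 50 (SD, n = 5) and 29.0 ± 1.01 CPM in Sham 73 and 74 (SD, n = 2). The acinar share of counts was 9.20% and 23.2% in these PX runs, and 2.08%, 16.8% and 1.82% in these sham runs. The later PX run and the middle sham run, where acinar RNA was more abundant, thus had the highest mean Slc2a1 level of their group; no test was made between runs. The correlation of Slc2a1 with the acinar score was 0.72 in PX and 0.47 in sham, and with the macrophage score 0.72 in PX and -0.64 in sham, each over the libraries of that group.

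Abcc8, the regulatory subunit of the KATP channel and the receptor of sulfonylurea drugs, was at 219 to 376 CPM in sham with a median of 308. In PX it was at 152 to 278 CPM with a median of 201. Of the 10 sham libraries 8 lay above every PX library, and 6 of the 11 PX libraries lay below every sham library. The overlap came from Sham 21 and Sham 49, at 219 and 256 CPM, and from the 5 highest PX libraries. Group means were 308 ± 46.96 CPM (SD, n = 10) and 218 ± 43.8 CPM (SD, n = 11), and the log2 fold change was -0.50 ± 0.11 (SE; Benjamini-Hochberg adjusted p = 0.00199, edgeR). With TMM scaling this was the largest change of the 5 genes and the one of lowest p, and the call stood without each library in turn (log2 fold changes from -0.53 to -0.41).

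Kcnj11, the pore subunit of the same channel, was at 101 to 194 CPM in sham with a median of 154. In PX it was at 73.98 to 161 CPM with a median of 108. Here 4 sham libraries lay above every PX library and 3 PX libraries below every sham library, so the groups overlapped more than for Abcc8. PX 57, at 161 CPM, was the highest PX library, and Sham 46, at 101 CPM, the lowest sham library. Group means were 150 ± 25.4 CPM (SD, n = 10) and 115 ± 24.6 CPM (SD, n = 11), and Kcnj11 fell by 0.39 ± 0.12 on the log2 scale (SE; Benjamini-Hochberg adjusted p = 0.0175, edgeR). The call was lost without any 1 of Sham 21, Sham 74, PX 36, PX 38 or PX 41, at log2 fold changes from -0.33 to -0.32 (edgeR adjusted p from 0.0514 to 0.0577).

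Ucn3, the urocortin peptide of mature beta cells, was at 56.2 to 136 CPM in sham with a median of 98.2. In PX it was at 38.1 to 103 CPM with a median of 75.9. As for Kcnj11, 4 sham libraries lay above every PX library and 3 PX libraries lay below every sham library. Sham 46 was the lowest sham library and PX 65 the lowest of all. Group means were 99.96 ± 24.6 CPM (SD, n = 10) and 72.4 ± 20.5 CPM (SD, n = 11), and Ucn3 fell by 0.46 ± 0.16 on the log2 scale (SE; Benjamini-Hochberg adjusted p = 0.0330, edgeR). This call was the least stable of the 3 that fell: it was lost in 12 of the 21 fits that left out 1 library, with adjusted p up to 0.104, under 3 other scalings (adjusted p from 0.0522 to 0.0553), and when the acinar score entered the model (log2 fold change -0.39, edgeR adjusted p = 0.147). Without PX 44, PX 65 and Sham 46 together it stood at -0.47 (edgeR adjusted p = 0.00684), as did Abcc8 at -0.37 (0.0134) and Kcnj11 at -0.30 (0.0188), while Slc2a1 stood at 0.42 with adjusted p = 0.0625.

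**Figure D2:**
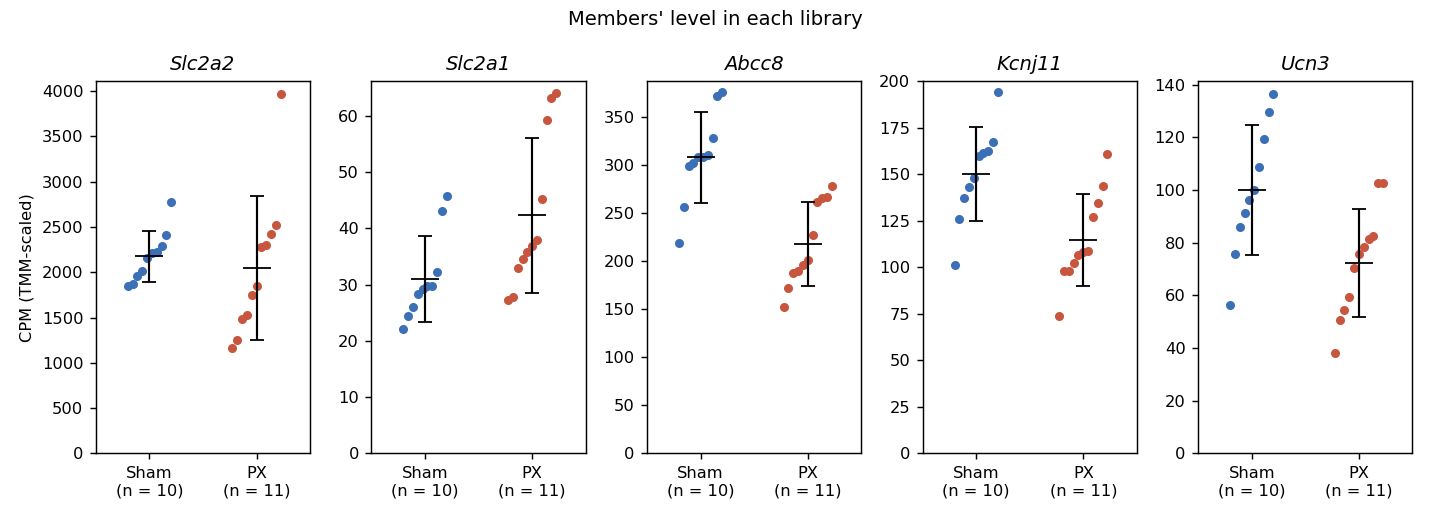
Level of each measured gene in TMM-scaled CPM in every library (points; 10 sham, 11 PX), with the group mean (bar) and SD (whiskers). Of the sham points of Abcc8, 8 lie above every PX point, and the PX points of Slc2a2 spread from 1159 to 3970 CPM around a narrower sham group.

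Markers of macrophages and mesenchymal cells were higher in every PX library than in most sham libraries, as given above. With both scores as covariates, 0 of the 5 genes and 12 of all 13136 genes were called (edgeR, 5 genes: adjusted p from 0.0992 to 0.973). The log2 fold changes were then -0.25 for Abcc8, 0.071 for Kcnj11, 0.43 for Ucn3, 0.025 for Slc2a1 and 0.89 for Slc2a2. The scores accounted for a share of 0.770 of the variance of the group label, so group and scores cannot be told apart in these libraries. In sham alone, over 10 libraries, the mesenchymal score had r = -0.86 with Kcnj11, -0.86 with Ucn3 and 0.23 with Abcc8. In PX, over 11 libraries, these were -0.14, -0.67 and -0.13.

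In the authors' deposited table, which lists 13140 genes with 4073 at an adjusted p under 0.05, Abcc8 (log2 fold change -0.51), Kcnj11 (-0.40) and Ucn3 (-0.47) were under the threshold. The authors' deposited table gave Slc2a1 a log2 fold change of 0.42 with an adjusted p of 0.0563, which misses it, and Slc2a2 one of -0.17 with an adjusted p of 0.444.

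To follow these genes relative to the main beta-cell products, each was set against an insulin score, the mean log2 CPM of Ins1, Ins2 and Iapp in the same library, a difference that does not depend on the scaling factor. Relative to this score, both channel subunits and Ucn3 were lower in PX, by similar amounts, while neither transporter passed. For Abcc8 the ratio was -6.52 ± 0.39 in sham (SD, n = 10) and -7.14 ± 0.54 in PX (SD, n = 11), on the log2 scale. It was lower by -0.62 in PX, a linear factor of 0.650 (two-sided permutation test, adjusted p = 0.0163 over 7 ratios). For Kcnj11 the difference was -0.51 (permutation test, adjusted p = 0.00931), and 9 of 11 PX libraries lay below every sham library while PX 37 lay above them all. For Ucn3 it was -0.59 (permutation test, adjusted p = 0.00931), with 7 of 11 PX libraries below every sham library. For Slc2a2 it was -0.28 (permutation test, adjusted p = 0.190), with 6 PX libraries below and 2 above every sham library, and for Slc2a1 0.30 (adjusted p = 0.154).

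Iapp, the amylin gene, was itself called higher in PX (log2 fold change 0.60, edgeR adjusted p = 0.0452), whereas Ins1 and Ins2 were at -0.12 and 0.095 (edgeR adjusted p = 0.702 and 0.805). With Ins2 alone as the reference the differences were -0.49 for Abcc8, -0.38 for Kcnj11 and -0.46 for Ucn3, and none passed (permutation tests, adjusted p = 0.229). With only the 8 PX animals of BG 121 or less they were -0.50, -0.45 and -0.41 (exact permutation tests, adjusted p = 0.0597 each).

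The subunits were also compared with each other, since the channel takes SUR1 and Kir6.2 in equal number. Abcc8 minus Kcnj11 was 1.04 ± 0.38 log2 units in sham (SD, n = 10) and 0.93 ± 0.33 in PX (SD, n = 11), a difference of -0.11, less than either SD (permutation test, adjusted p = 0.472). The balance of transporters, Slc2a1 minus Slc2a2, was -6.14 ± 0.27 in sham and -5.56 ± 0.84 in PX. The difference of 0.58 did not pass (permutation test, adjusted p = 0.0951), with 4 PX libraries above every sham library and PX 44 below them all. Without PX 44 it was 0.70 (permutation test, adjusted p = 0.0167), and without PX 36 it was 0.67 (adjusted p = 0.0460). In the other 19 of the 21 tests that left out 1 library it did not pass (permutation tests, adjusted p up to 0.170). Without PX 44, Slc2a2 relative to the insulin score was also lower, by -0.41 (permutation test, adjusted p = 0.0167). It did not pass in the other 20 of these 21 tests (permutation tests, adjusted p up to 0.315).

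**Figure D3:**
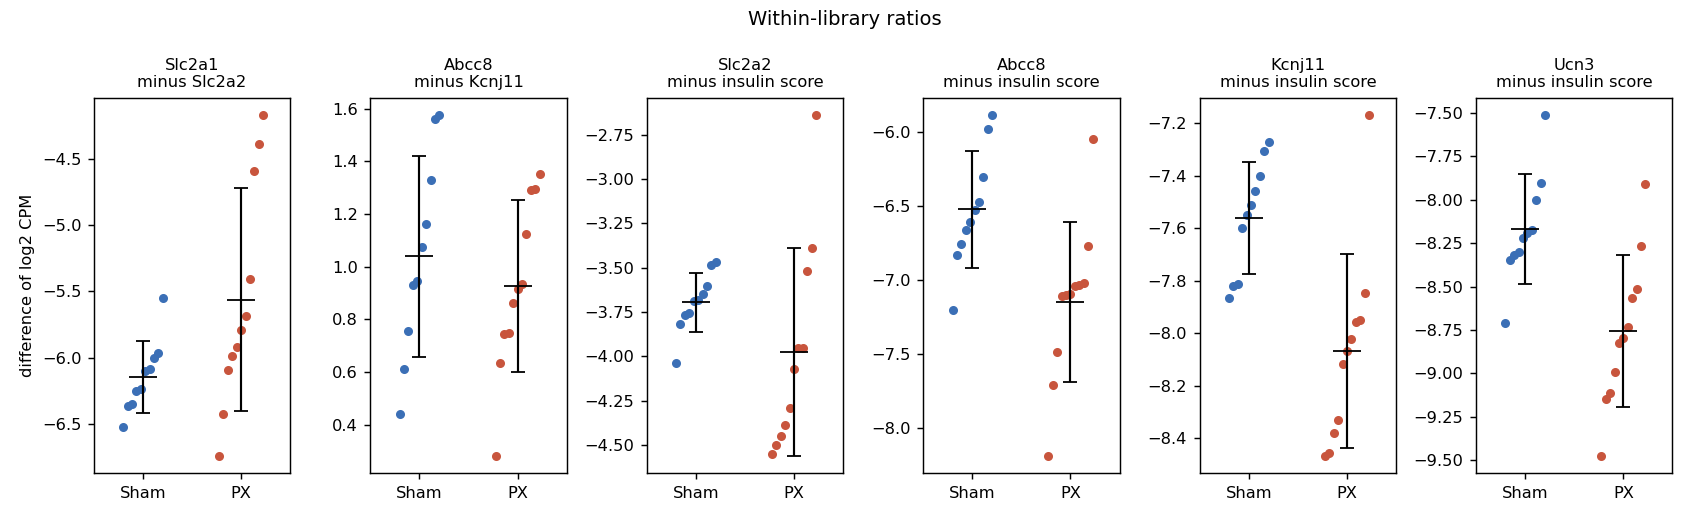
Within-library ratios as differences of log2 CPM, by group (points are libraries, 10 sham and 11 PX; bar and whiskers are mean and SD). Abcc8, Kcnj11 and Ucn3 lie lower relative to the insulin score in PX. For Abcc8 relative to Kcnj11 the groups overlap, except for 1 PX library below every sham library and 2 sham libraries above every PX library.

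Whether the genes follow the glucose label was asked within each group. No gene at all was called for a slope on BG within PX by edgeR (0 of 11196 genes, 0%; 1439 at an unadjusted p under 0.05, and 18 called by DESeq2, none of them among these 5). None was called within sham (0 of 11532, 77 at an unadjusted p under 0.05) or for the difference of the slopes (0 of 13136, 145 at an unadjusted p under 0.05). Within PX the steepest slopes were those of Ucn3, -0.12 ± 0.048 log2 units per 10 BG units (SE; edgeR, unadjusted p = 0.0248, adjusted p = 0.355), and Slc2a2, -0.12 ± 0.064 (adjusted p = 0.440). Abcc8, Kcnj11 and Slc2a1 had slopes of -0.038, -0.0070 and 0.031 (edgeR adjusted p = 0.712, 0.954 and 0.828). The difference of the Ucn3 slopes, PX minus sham, was -0.22 ± 0.20 (edgeR adjusted p = 0.9998).

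Over the 11 PX libraries Ucn3 had a Pearson r of -0.62 with BG (permutation p = 0.0406, adjusted p = 0.406 over 10 relations) and a Spearman rho of -0.52 (permutation p = 0.104, adjusted p = 0.995). Without PX 65 and PX 41, the animals of BG 174 and 156 and the 2 lowest in Ucn3, at 38.1 and 50.8 CPM, r was 0.25, so the relation rests on those animals. PX 57, with BG 140, had 103 CPM, close to the highest of its group. The other 9 relations had r from -0.44 to 0.25 (permutation tests, adjusted p from 0.909 to 0.966). Leaving out the same 2 animals moved r of Kcnj11 in PX from 0.036 to 0.54. Of the 8 PX animals of BG 121 or less, only PX 44, at BG 101, lay within the sham range of 82 to 104. With these 8, Abcc8 and Kcnj11 were still called lower, at log2 fold changes of -0.41 and -0.37 (edgeR adjusted p = 0.0146 and 0.0445). In that fit 19.3% of all genes were called, in either direction. Ucn3 and Slc2a1 kept their direction there at -0.35 and 0.45 without passing (edgeR adjusted p = 0.0959 and 0.0856).

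**Figure D4:**
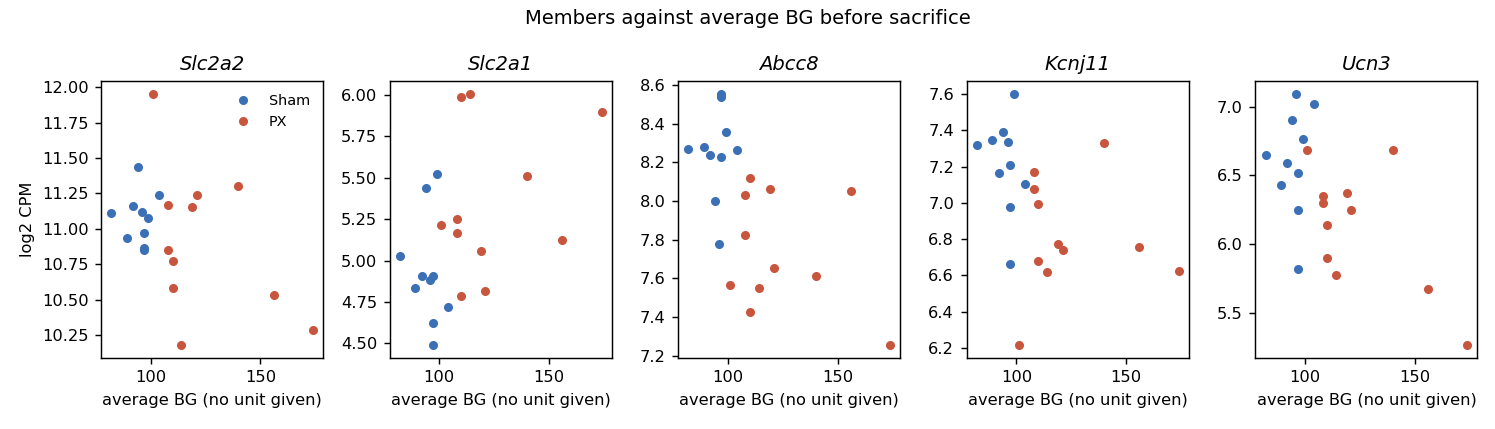
Log2 CPM of each measured gene against the average BG of the animal (no unit is given), with sham in blue (n = 10) and PX in red (n = 11). The 2 PX animals of highest BG, 156 and 174, have the lowest Ucn3, and the Abcc8 points of PX lie below most sham points at low and high BG alike.

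The genes did not vary as 1 block among libraries of the same group. Ucn3 and Slc2a2 had the highest r of any pair in PX, 0.85 over 11 libraries, and 0.73 over the 10 sham libraries, and PX 44 and PX 57 were the 2 highest PX libraries for both. Abcc8 and Kcnj11, the partners of 1 channel, had r = -0.21 in sham and 0.42 in PX. Slc2a1 and Kcnj11 had r = 0.86 in sham, the highest there, and -0.20 in PX, and Slc2a1 and Abcc8 -0.20 and -0.74. PX 44 had the highest Slc2a2 and Ucn3 and the lowest Kcnj11 of the PX group. In Sham 46, 4 of the 5 genes were at their lowest in sham, Abcc8 being the exception. These correlations describe libraries that share depth, scaling and RNA of other cells, and carry no test.

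Genes with the most similar pattern were sought by Spearman's rho of log2 CPM, centred within groups, over 21 libraries and 8174 genes of at least 10 mean CPM. For Abcc8 they were Dgkh, a diacylglycerol kinase (rho = 0.95), Cacna1c, the pore of an L-type calcium channel (0.94), and Strn4 (0.93). For Slc2a2 they were Plppr4, St18 and Rab9b (each 0.92), and for Ucn3 Suox, the sulfite oxidase (0.88), Strbp (0.87) and Dnajc24 (0.87). For Kcnj11 they were Smim5 (0.87), Chrnb2, a nicotinic receptor subunit (0.86), and Nipal3 (0.84), and for Slc2a1 Tmem86a, Mrpl3 and Snx17 (0.88, 0.88 and 0.87). Over all 13136 genes tested 16.2% were called lower and 14.9% higher. That set also holds genes under 10 mean CPM, unlike the set searched, so no excess can be read from these shares. Of the 15 nearest genes, 7 were called lower in PX and 0 higher. They were the 3 neighbours of Abcc8, Cacna1c (log2 fold change -0.82, edgeR adjusted p = 5.0e-04), Dgkh (-0.48, adjusted p = 0.0159) and Strn4 (-0.36, adjusted p = 0.0470), with Nipal3 (-0.40), Strbp (-0.33), Dnajc24 (-0.41) and Plppr4 (-0.35; edgeR adjusted p from 0.00457 to 0.0376). None of the 5 genes was among the nearest 3 of another.

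The wider pathway was described by lists of related genes. Their counts stand beside the shares over all genes tested, 14.9% called higher in PX and 16.2% lower. The lists too were chosen with earlier results of these data known, so no excess can be read from their counts. Of the 4 KATP-type subunits, the beta-cell pair fell and the other pair, Abcc9 (SUR2) and Kcnj8 (Kir6.1), known from smooth muscle and other vascular cells, rose. Abcc9 went from 48.3 ± 20.9 to 73.6 ± 15.1 CPM (log2 fold change 0.60, edgeR adjusted p = 0.0110) and Kcnj8 from 5.69 ± 1.61 to 9.98 ± 1.37 CPM (0.80, adjusted p = 1.5e-04; SD, n = 10 and n = 11). With library totals as the only scaling Kcnj8 was still called (0.56, adjusted p = 0.0458) and Abcc9 was not (0.40, adjusted p = 0.212). In the same libraries all 8 mesenchymal markers rose, and of 5 tested endothelial markers Cdh5 and Tek rose (0.61 and 0.51), Esm1 fell (-0.66) and Kdr and Plvap were not called (-0.15 and 0.41). Their part was not tested.

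Of 10 tested sugar transporters, 4 rose, 1 fell and 5 were not called (median log2 fold change 0.49). Over all genes tested 14.9% rose and 16.2% fell. Beside Slc2a1, the neuronal and leukocyte transporter Slc2a3 rose from 6.34 ± 0.91 to 10.5 ± 3.60 CPM (log2 fold change 0.72, edgeR adjusted p = 0.00325). The insulin-responsive transporter Slc2a4 (0.81, adjusted p = 0.0261) and the urate carrier Slc2a9 (0.68, adjusted p = 0.00269) rose from low levels, at 2.40 and 6.98 CPM in sham. Slc2a8, an intracellular transporter, fell from 17.1 ± 2.77 to 11.4 ± 2.12 CPM (-0.59, adjusted p = 8.6e-04). With library totals as the only scaling, which moved the median of all genes to -0.28, 0 transporters were called higher. Under that scaling 24.5% of all genes were called, in either direction. None of these 4 other called transporters turned direction under the scalings tried.

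Of the glucose-6-phosphatase system, Slc37a2, a glucose-6-phosphate carrier known from macrophages, rose from 1.01 ± 0.79 to 5.34 ± 3.63 CPM (log2 fold change 2.37, edgeR adjusted p = 7.3e-05), in the libraries where 9 of 9 macrophage markers rose. The part of macrophages in this rise was not tested. Slc37a1 fell (-0.34, adjusted p = 0.0215), a call lost without any 1 of Sham 21, 22, 24, 73 or 74 or PX 36, 38, 41 or 44 (adjusted p up to 0.0804) and in 5 of 14 other alternatives. G6pc3, the widely expressed catalytic subunit, and Slc37a4, the carrier of the endoplasmic reticulum, were at 0.027 and -0.16 (adjusted p = 0.889 and 0.459). The list median was -0.067, and the liver-type subunit G6pc was under the count filter (0.648 CPM in sham, 1.54 CPM in PX).

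Of 22 tested genes from glycolysis to ATP, 7 rose, 4 fell and 11 were not called (median log2 fold change 0.18). Over all genes tested 14.9% rose and 16.2% fell, so the part of this list that fell was near the share of all genes. The genes that rose were the glycolytic Pfkp (0.57), Eno1 (0.44), Pgk1 (0.43) and Aldoa (0.34), the pyruvate dehydrogenase subunit Pdha1 (0.40), the aspartate-glutamate carrier Slc25a13 (0.49) and the malate dehydrogenase Mdh1 (0.39), with edgeR adjusted p from 0.0132 to 0.0422. Those that fell were Gpd2 (-0.59), the mitochondrial glycerol-3-phosphate dehydrogenase that passes glycolytic electrons to the respiratory chain, Pc (-0.40), pyruvate carboxylase, Pfkm (-0.31), the muscle-type phosphofructokinase, and Slc25a12 (-0.24), another aspartate-glutamate carrier. Gpd2 went from 92.7 ± 11.9 to 61.5 ± 12.6 CPM (edgeR adjusted p = 4.6e-04). Without single libraries the number that fell ran from 1 to 4 and the number that rose from 5 to 11. It was 1 or 2 that fell without any 1 of Sham 21, 22, 24, 46, 73 or 74 or PX 36, 38, 41 or 44, and 11 that rose without PX 44. The call of Slc25a12 was lost in 18 of the 21 fits that left out 1 library (edgeR adjusted p up to 0.128) and stood only without Sham 47, PX 57 or PX 65. The call of Pc was lost in 9 of these fits, that of Pfkm in 8, Mdh1 in 6, Aldoa in 3 and Slc25a13 in 1 (adjusted p up to 0.107), while Gpd2, Pfkp, Eno1, Pgk1 and Pdha1 were called in all 21. With the acinar score in the model 0 of the list rose and 1 fell, and with library totals as the only scaling 0 rose and 2 fell. In these 2 fits 17.5% and 24.5% of all genes were called, in either direction. Gapdh, Tpi1 and other glycolytic genes have many near-identical copies in the genome, so their counts are uncertain.

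Of 7 tested partners of the channel, 3 fell, 1 rose and 3 were not called (median log2 fold change -0.15). The shares over all genes tested were 16.2% that fell and 14.9% that rose. Rapgef4, the cAMP sensor Epac2 that binds SUR1, fell from 94.0 ± 10.6 to 64.3 ± 12.5 CPM (-0.55, edgeR adjusted p = 4.8e-04). Stx1a, the syntaxin of the exocytotic machinery (-0.51, adjusted p = 0.00349), and Prkaa2, a catalytic subunit of the energy sensor AMPK (-0.48, adjusted p = 0.0301), fell as well. Rapgef4 and Stx1a were called in all 21 fits that left out 1 library, while the call of Prkaa2 was lost without any 1 of Sham 21, 22, 24, 46, 47, 73 or 74 or PX 36, 41, 44 or 62 (adjusted p up to 0.100) and in 7 of 14 other alternatives. Ckb, brain-type creatine kinase, rose (0.91, adjusted p = 0.00467). With library totals as the only scaling it did not pass (0.70, edgeR adjusted p = 0.0628).

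Around urocortin 3, 3 of 6 tested genes fell, none rose and 3 were not called (median log2 fold change -0.39). The share of all genes tested that fell was 16.2%, and 14.9% rose. Sst, the somatostatin gene of delta cells, went from 992 ± 259 to 430 ± 119 CPM (log2 fold change -1.21, edgeR adjusted p = 1.3e-05). Sstr5, a somatostatin receptor, fell from 13.2 ± 3.98 to 5.94 ± 2.29 CPM (-1.15, adjusted p = 3.1e-04), and Sstr3, another, was at -0.10 (adjusted p = 0.553). Crhr2, the receptor of urocortin 3, was under the count filter (0.879 CPM in sham, 0.793 CPM in PX). The related peptide genes Ucn, Ucn2 and Crh and the binding protein gene Crhbp had 0 counts in all 21 libraries. Of 3 tested delta-cell markers 2 were called lower, Sst among them.

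Of 11 tested beta-cell transcription factors, 6 fell, none rose and 5 were not called (median log2 fold change -0.47). Among all genes tested 16.2% fell and 14.9% rose. Rfx6 (-0.74), Glis3 (-0.68), Nkx6-1 (-0.64), Pax6 (-0.64), Isl1 (-0.47) and Pdx1 (-0.44) fell (edgeR adjusted p from 9.3e-04 to 0.0299). Without single libraries 3 to 7 of the list fell, 3 of them without Sham 21 or Sham 22, and 4 without Sham 24, 73 or 74 or PX 41. The call of Glis3 was lost in 10 of the 21 fits, that of Isl1 in 8 and those of Pdx1 and Nkx6-1 in 1 each, while Rfx6 and Pax6 were called in all. Mafa, a factor of mature beta cells, went from 153 ± 36.2 to 124 ± 46.5 CPM without passing (-0.31, adjusted p = 0.187), as did Neurod1 (-0.28, adjusted p = 0.0686). With the acinar score in the model 3 of the transcription factors fell, where 17.5% of all genes were called in either direction. With both other scores in it, 0 genes of any of these lists and 12 of all 13136 genes were called.

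**Figure D5:**
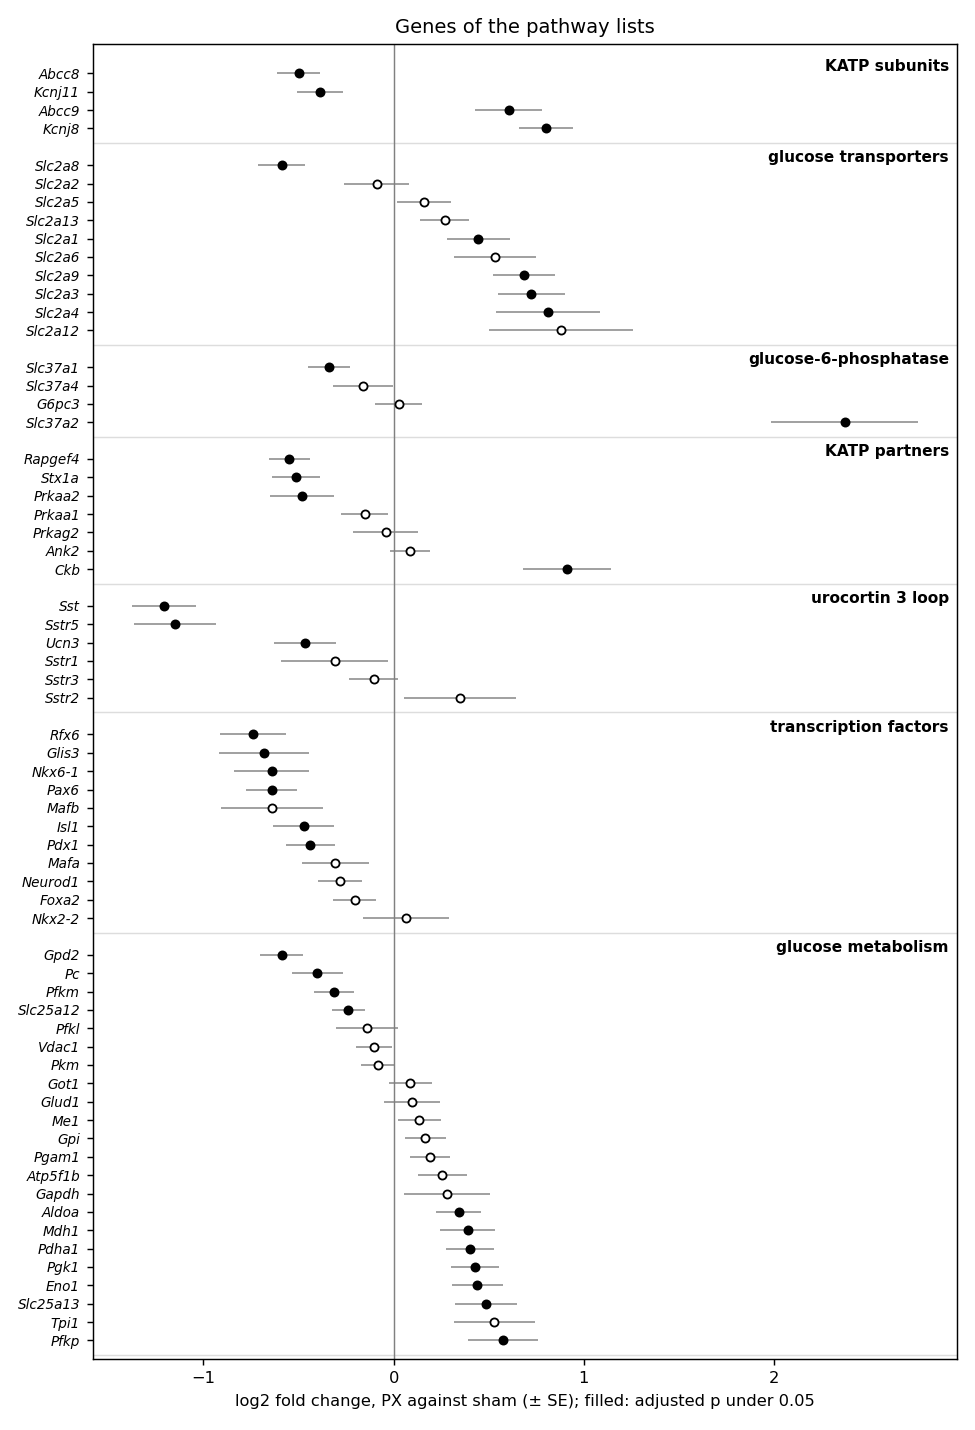
Log2 fold change of PX against sham with its SE for the tested genes of each pathway list; filled points have an adjusted p under 0.05. Abcc8 and Kcnj11 lie left of 0 and Abcc9 and Kcnj8 right of it, Sst and Sstr5 lie farthest left, and Slc37a2 lies farthest right.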

How the data were processed

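RNA-seq counts of 21 islet libraries (11 PX, 10 sham) were grouped by the sample titles. The deposited counts are whole reads per gene name in featureCounts layout, not normalized, per the file headers; the submitters' processing notes name FastQC, Subread, featureCounts and limma, and the build and strand setting are left unstated. Exon length as deposited gave CPM per kilobase. The authors' deposited table of the comparison gives the log2 fold change, mean log2 expression, fold change as a linear ratio, and p-value with adjusted p-value, per the file headers.

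From the counts, edgeR 4.0.16 under R 4.3.3 was used with TMM scaling and the filterByExpr rule (minimum count 10, total 15), and fitted robust quasi-likelihood models to PX against sham, to BG per 10 units within each group, and to the interaction. Tests were two-sided and adjusted by Benjamini-Hochberg over all genes at 0.05. An SE is the log2 fold change divided by the root of F. Log2 CPM used a prior count of 2. Ratios and correlations used permutation tests with 100000 resamples (exact where either group had fewer than 10 libraries; scipy 1.17.1), adjusted over 7 ratios and 10 relations. These were to be 8 and 12, but G6pc2 has no row. Fits were also run on simulated counts with planted changes. Those counts held no difference in cell mixture between the groups, so no conclusion on these libraries is drawn from them.

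Named genes were the 6 listed genes, the called genes of each list with up to 4 more by p, and the 3 genes nearest each by rho; not all are printed, and 1 gene was taken out of the list of channel partners and is not reported here. Members, lists and tests were chosen with earlier results of these data known. Alternatives were other scalings, filters, DESeq2 1.42.0, limma 3.58.1 voom, score covariates, PX limited to BG 121 or less, and libraries left out. The most similar pair of libraries of a group, Sham 73 and Sham 74, had a chi-square of 4.12 per degree of freedom, where sampling noise alone gives 1, and all libraries were kept as separate.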

Additional observations from a re-analysis of the deposited data

How the results depend on the processing

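Precision is limited by the spread between libraries more than by depth: the lowest count of any of the 5 genes in a library was 121, for Slc2a1. Adjusted p-values of Ucn3 and Slc2a1 lay near the threshold, and small changes of scaling or sample moved them across it. Abcc8 was called in 13 of the 14 alternatives other than single libraries left out, and in all 21 of those. With library totals only, the median log2 fold change of all genes was -0.28, and over the other alternatives, single libraries left out included, it ran from -0.072 to 0.016. No paired analysis was possible because no animal number occurs in both groups.

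The number of the 5 genes called in PX against sham was 4; it was 2 with the acinar score as a covariate, where 17.5% of all genes were called, 2 with the PX animals of BG 121 or less, where 19.3% were, 0 with the macrophage and mesenchymal scores, and 2 to 4 without single libraries. The log2 fold change of Ucn3 did not pass with DESeq2 size factors (-0.42, edgeR adjusted p = 0.0522), upper-quartile factors (-0.42, 0.0527), a scaling without the 20 most abundant genes (-0.42, 0.0553), the acinar score (-0.39, 0.147) and the lower BG animals (-0.35, 0.0959). That of Slc2a1 did not pass with library totals (0.17), no low-count filter (0.41), limma voom (0.42), the acinar score (0.19), the insulin score (0.41), the lower BG animals (0.45) and without PX 44, PX 65 and Sham 46 (0.42), at adjusted p from 0.0529 to 0.489. Slc2a2, never called, was at 0.030 in the lower BG animals. With the macrophage and mesenchymal scores, Abcc8 was at -0.25 and Slc2a1 at 0.025 without passing, and Kcnj11 (0.071), Ucn3 (0.43) and Slc2a2 (0.89) turned sign, none passing. Without single libraries the log2 fold changes ran from 0.37 to 0.55 for Slc2a1, -0.45 to -0.28 for Kcnj11 and -0.52 to -0.35 for Ucn3; the cause of these changes was not tested.

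Called genes of the pathway lists that turned sign with the macrophage and mesenchymal scores were Slc2a3 (-0.12), Slc2a4 (-0.0064), Slc37a2 (-0.038), Pfkm (0.24), Pfkp (-0.67), Aldoa (-0.30), Pgk1 (-0.41), Eno1 (-0.32), Pc (0.22), Slc25a12 (0.023), Rapgef4 (0.073), Stx1a (0.21), Ckb (-0.40), Sstr5 (0.18), Nkx6-1 (0.023), Isl1 (0.34) and Rfx6 (0.36), none passing in that fit (edgeR adjusted p from 0.150 to 0.998).

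Within-library ratios to the insulin score did not pass with Ins2 alone as the reference (Abcc8 -0.49, Kcnj11 -0.38, Ucn3 -0.46) or in the lower BG animals (-0.50, -0.45 and -0.41). Without single libraries, Slc2a1 minus Slc2a2 ran from 0.44 to 0.70 and Slc2a2 minus the insulin score from -0.41 to -0.22.

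No BG slope of the 5 genes was called in any alternative, among them a low-count filter by the slope design, chosen after seeing the data. Signs turned as follows, in log2 units per 10 BG units. Within PX, Slc2a1 was at -0.080 with library totals and -0.029 with the acinar score, and Kcnj11 (0.14) and Ucn3 (0.053) turned without the 2 animals of highest BG. Within sham, Slc2a2 was at -0.0035 with DESeq2 size factors and with DESeq2; Slc2a1 (0.074) and Kcnj11 (0.033) turned with library totals, and Slc2a1 (0.13) and Abcc8 (-0.038) with the acinar score. Without Sham 48 and Sham 22, Slc2a1 was at 0.18, Slc2a2 at -0.12 and Ucn3 at -0.015, and without Sham 48 and Sham 74, which tie in distance, Slc2a2 was at -0.061. The difference of slopes turned with library totals for Slc2a1 (-0.15) and Kcnj11 (-0.12), and with the acinar score for Slc2a1 (-0.21) and Abcc8 (0.076). Without single libraries, slopes within PX ran from -0.031 to 0.059 for Slc2a1, -0.089 to 0.031 for Abcc8 and -0.036 to 0.049 for Kcnj11, and within sham from -0.18 to 0.041 for Slc2a1, -0.063 to 0.039 for Slc2a2 and -0.035 to 0.24 for Ucn3.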
